A study of Squalius alburnoides and Squalius pyrenaicus with 4 samples.

Results

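The diploid hybrid PA of the *Squalius alburnoides* complex was set against its mid-parent, the mean of the forms AA and PP on the linear intensity scale, miRNA by miRNA. The members were the zebrafish miRNA probes detected on all 3 arrays. Probes made only for invertebrate miRNAs were detected on all 3 at a similar share, 93 of them. Detection therefore does not by itself show that a miRNA was expressed. The members were 116 (53.2%) of the zebrafish probes on the chip. Of the other 102, 16 were detected on PA alone, 4 on AA alone, 11 on PP alone, 8 on PA and AA, 12 on PA and PP, 8 on AA and PP and 22 on none, while 21 had fewer than 2 spots kept on at least 1 array.

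PA fish carry a P genome from *Squalius pyrenaicus* and an A genome from the extinct paternal ancestor of the complex. AA fish carry A genomes only and are reconstituted within the complex, so they stand in for an ancestor that no longer exists, and PP is the sexual species *S. pyrenaicus*. Total RNA of liver, muscle and brain of adult fish was pooled, from 3 individuals of each composition per the series' design text, labelled with Cy3 and hybridized to 1 array per composition, 4 arrays with the triploid PAA. No difference therefore had a replicate check and none was tested. Errors given as ± are log2 standard errors (SE) over the passing spots, up to 4 for each probe, and cover the scatter inside the arrays only. PA was hybridized on another slide than AA and PP, so slide cannot be told apart from being a hybrid. PAA lay on the slide of PA, so a PAA value beside that of PA is no check on the slide. PA and PP lay in the same part of their slides, while AA lay in the other. The *S. alburnoides* fish came from another river than *S. pyrenaicus*, and AA fish are males, so river and sex cannot be told apart from composition either.

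MicroRNAs (miRNAs) are short RNAs that pair with messenger RNAs through a seed near their 5′ end and repress them. A hybrid in which each parental genome keeps its own output is called additive and sits at the mid-parent. A level above or below both parents is called transgressive, and a level like that of a single parent is called expression level dominance. In fish as in mammals many miRNAs mark a tissue, so in pooled RNA fewer cells of a type and less of the miRNA per cell cannot be told apart.

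The signal summed over the detected zebrafish probes was 153618 intensity units on PA, 152942 on AA and 147505 on PP, so that PA held 102.26% of the mid-parent total before the arrays were scaled to a common total. PA had 164 detected probes against 154 on AA and 156 on PP. The arrays differed in noise. The 95th percentile of spots without a probe (BLANK) was 209.1 for PA, 202.8 for AA and 515.9 for PP, and 88, 66 and 31 of the detected probes exceeded it. Only 22 of the 116 probes were above this level on all 3 arrays. A local background over 150 lay under 26.4% of the zebrafish spots of PA and 29% of those of PP, against 2.29% of those of AA. Among the tissue markers, 4 of 5 brain miRNAs were detected on PA with a summed scaled intensity of 6732, against 6314 on AA and 6357 on PP. These sums covered different members, as miR-128 was not detected on PA nor miR-124 on AA. The members also went different ways, with miR-9 highest on PA, miR-138 and miR-219 highest on AA and miR-138 lowest on PA. Where detected, the 3 liver miRNAs summed to 24881, 21329 and 23102, nearly all of it from miR-192, and the 5 skeletal muscle miRNAs to 1318, 1128 and 785. The members covered differed here too, with 3, 2 and 3 liver and 4, 5 and 4 muscle miRNAs detected on PA, AA and PP. Of markers of other cells, red blood cell miR-451 read 404, 162 and 121, and the 5 leukocyte miRNAs summed, where detected, to 1654, 1720 and 1263. The leukocyte sums also covered different members, with 3 detected on PA, 3 on AA and 4 on PP. These members went different ways, as miR-155 was highest on PA and miR-150 on AA.

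Most probes on PA lay close to the mid-parent, although only 22 of the 116 were above the BLANK level on all 3 arrays. The median log2 difference was 0.14, with quartiles of −0.14 and 0.51, and 102 probes (87.9%) lay within 2-fold of the mid-parent and 82 (70.7%) within 1.5-fold. PA was above the mid-parent for 73 probes (62.9%) and below it for 43. Probes made only for invertebrate miRNAs, which served as background, were above it in 66.7% of 93, with a median of 0.25, so the excess of probes above the mid-parent was no larger for zebrafish probes. The median turned to −0.10 when each array was scaled to its median in place of its total, a shift that bears on every value given here. By simple order PA was the highest of the 3 arrays for 49 probes, in the middle for 52 and the lowest for 15.

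A probe was put in a class by a tolerance of 1.5-fold. PA was above both parents for 19 probes (16.4%; 10.8% of the invertebrate probes) and below both for 3 (2.59%; 1.08%). It was AA-like for 19 (16.4%), meaning within 1.5-fold of AA and further than that from PP, and PP-like for 21 (18.1%), where the invertebrate probes gave 19.4% and 10.8%. It lay between the parents, over 1.5-fold from each, for 5 (4.31%; 4.3%), and was near both for 49 (42.2%; 53.8%). Of these 49, 29 were above the BLANK level on no array and 10 on all 3, so nearness was often between dim signals. A difference from the mid-parent of at least 2-fold was seen upwards for 9 probes (7.76%) and downwards for 5 (4.31%), against 3.23% and 0% of the invertebrate probes. The 3 probes just inside the above-both class were miR-125c, miR-203a and miR-10a*, at 1.51, 1.52 and 1.53 times the higher parent, and the 3 just outside were miR-30e, miR-724 and miR-133a, at 1.48, 1.46 and 1.42 times.

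**Figure D1:**
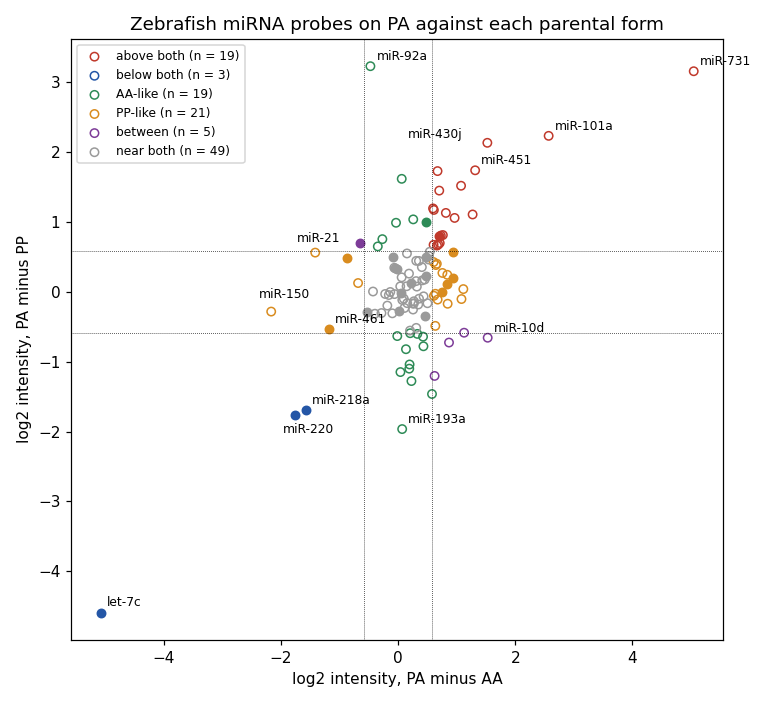
Each of the 116 zebrafish probes by its log2 difference between PA and AA (horizontal axis) and between PA and PP (vertical axis), coloured by class, with filled points for the 22 probes above the BLANK level on all 3 arrays and dotted lines at 1.5-fold. The 49 probes near both parents crowd the centre, miR-731 stands alone at the upper right and let-7c at the lower left.

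Of the miRNAs above both parents, miR-731 stood furthest out. It is a teleost miRNA encoded beside miR-462 and known to be induced in fish by interferon. Its probe read a scaled intensity of 4139.5 on PA, 125.3 on AA and 465 on PP, from 4 spots each. The PA spots, from 3938 to 4298, were all above those of the parents, which went no higher than 527. PA was 14.0 times the mid-parent, a log2 difference of 3.81 ± 0.06, and 8.90 times PP, the higher parent. Both parents were under their BLANK levels, and against those PA was at least 7.82-fold higher. Its cluster partner miR-462 read 128.8, 100.5 and 138.1, a log2 difference of 0.11 ± 0.31, with no array above its BLANK level.

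By log2 difference the next probe was that of miR-101a, known in mammals to repress the histone methyltransferase gene EZH2, although both its parental values were under their BLANK levels. PA read 937, AA 158 and PP 199.7, and the lowest PA spot (815) lay above the highest parental spot (348). The log2 difference was 2.39 ± 0.19, and it was 2.49 in the upper pair of spots and 2.48 in the lower pair. The upper PA spots had local backgrounds of up to 293, the lower ones of up to 109. Against the BLANK levels the bound was 1.77-fold, smaller than that of miR-430j.

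miR-430j is of the family by which the zebrafish embryo removes messenger RNA left by the mother. Its probe read 1475 on PA, 513 on AA and 337 on PP, a log2 difference of 1.80 ± 0.12, and PA was at least 2.79-fold above each parent or its BLANK level. The red blood cell miRNA miR-451 read 404, 162 and 121, with a difference of 1.51 ± 0.20, both parents under their levels, and no bound against that of PP. Its upper spots gave 1.82, over local backgrounds of 304 and 310 on PA, and its lower spots 1.38. For each of these miRNAs the spots of PA lay wholly above those of AA and PP, which was a condition for naming them. AA and PP differed from each other by less than PA did from either.

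Of the miRNAs with smaller differences, miR-25, a relative of miR-92 by its seed, read 566 on PA from 2 spots, 269 on AA and 198 on PP (1.28 ± 0.02). The hair cell miRNA miR-96 read 290.2, 120.1 and 135 (1.19 ± 0.11), with both parents under their BLANK levels. miR-24, encoded beside miR-23 and miR-27, read 465, 291 and 140.5 (1.11 ± 0.05). All PA spots of these miRNAs lay above the parental ones, which was a condition for naming them. Muscle miR-1 read 771 on PA from its 2 upper spots alone, where the background was 284 and 263, 474 on AA and 283 on PP (1.03 ± 0.05). The epithelial miR-200a had a similar mean difference (1.01 ± 0.35), with 479, 246 and 231, but its PA spots overlapped those of PP. miR-454b, with the seed of miR-130 and miR-301, read 441, 251 and 201.98 (0.96 ± 0.13), and miR-125c, of the family of the worm timing gene lin-4, 611, 404 and 268 (0.86 ± 0.12). The upper PA spots of miR-125c were 686 and 721, over local backgrounds of 256 and 300, and the lower ones 535 and 527.

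The other 9 probes above both parents were miR-200a, miR-10a*, miR-454a, miR-22a, miR-146b, miR-15a*, miR-30c, miR-23b and miR-203a, with log2 differences of at least 0.64. Of these miR-146b, a brake on innate immune signalling, was alone in the class in being above the BLANK level on all 3 arrays, with 5859 on PA, 3613 on AA and 3368 on PP (0.75 ± 0.08). Spots of PA were wholly above those of both parents for 16 of the 19 probes of the class, and for 25 of all 116 (21.6%; 18.3% of the invertebrate probes). When the parents were held at their BLANK levels, 7 of the 19 were still higher on PA than both and 4 by more than 1.5-fold, which were miR-731, miR-430j, miR-101a and miR-146b.

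**Figure D2:**
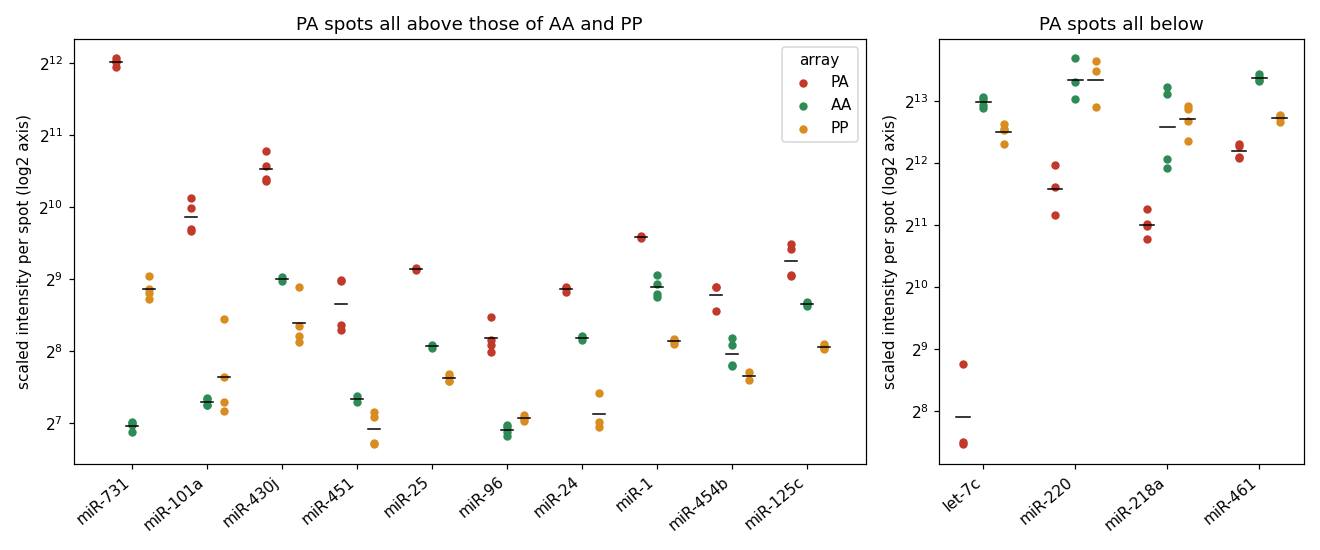
Scaled intensity of each passing spot (log2 axis) on PA, AA and PP for the 10 probes with the largest differences above the mid-parent whose PA spots lie wholly above the parental spots, and for the 4 whose PA spots lie wholly below; bars mark the mean on the log2 scale. The PA spots of miR-731 sit near 4139.5 while those of AA are near 125.3, and the PA spots of let-7c lie far under both parents.

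Below both parents lay 3 miRNAs, and all 3 were above the BLANK level on all arrays by their means. The let-7c probe, of the let-7 family that times development, read 239.8 on PA from 3 spots, 8059 on AA and 5773 on PP. The highest PA spot was 434 and the lowest parental spot 5034. PA was thus 28.8 times below the mid-parent, a log2 difference of −4.85 ± 0.43, of −3.84 in the upper spots and −5.27 in the lower ones. The let-7c probe was low as well, at 191, on the PAA array, which lay on the slide of PA. The other let-7 probes detected on all 3 arrays did not share this gap. let-7a read 162.4, 145.8 and 181.9 on PA, AA and PP, let-7b 488, 408 and 238, and let-7g 175, 169.7 and 387. Of the 4 members detected on all 3 arrays, only let-7c had bright parental arrays and a dim hybrid array.

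miR-220, for which no role is given here, read 3061 on PA, 10364 on AA and 10343 on PP, from 3 spots each. The parents were alike and PA was 3.38 times lower than the mid-parent, a log2 difference of −1.76 ± 0.28, with 1727.5 on PAA. miR-218a, known from motor neurons and hosted in slit genes, read 2055, 6122 and 6659, a difference of −1.64 ± 0.20, with 3099 on PAA. Its AA spots were spread from 3885 to 9525 and still lay above all PA spots. The probe of the teleost miR-461 also had PA spots wholly under both parents although PA was within 1.5-fold of PP. It read 4657 on PA, 10587 on AA and 6761 on PP (−0.90 ± 0.06), with 8451 on PAA. PA spots lay wholly below those of both parents for these 4 probes alone (3.45% of 116; 1.08% of the invertebrate probes).

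The parents themselves were over 1.5-fold apart for 48 probes, higher on AA for 16 and on PP for 32. Of these 48, PA was AA-like for 18, PP-like for 16, between for 5, above both for 5 and near both for 4. All 3 arrays were above the BLANK level for 7 of the 48, and of those 5 were PP-like, 1 was between and 1 near both. With the parents within 1.5-fold of each other, 14 of 68 probes were above both on PA and 3 below both. Which parent PA resembled depended on the scaling. With median scaling 31 probes were AA-like and 16 PP-like, and 16 of the 19 AA-like probes but 7 of the 21 PP-like probes stayed in their class.

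Among the AA-like probes, miR-92a, of the proliferation-linked miR-17-92 cluster, gave a reading of 1216 for PA, 1687 for AA and 129.95 for PP. The last of these was under its BLANK level, and against that level PA was at least 2.30-fold and AA at least 3.19-fold higher. AA was 1.39 times PA, and the PA spots overlapped with none of either parent. miR-93, a relative of miR-17, read 998 on PA and 956 on AA against 326 on PP, where the bound for PA over the BLANK level of PP was 1.89-fold. Lower readings on PA and AA than on PP were seen for miR-193a (154.8, 147.5 and 604 on PA, AA and PP). By its passing spots it was above the BLANK level on PP alone, with PP 3.01-fold above that of AA. The Hox cluster miRNA miR-10b (163, 109 and 450.4) and let-7g read likewise but were above the BLANK level on no array, so no gap between their parents could be given. The PP values of miR-10b and miR-193a came from spots spread from 305 to 968 and from 401 to 910.2. Those of miR-193a were its 2 upper spots, over local backgrounds of 187 and 264, and neither lower PP spot passed. The 3.01-fold of miR-193a is therefore no lower bound over all kept spots. Of the 19 AA-like probes, 10 were above the BLANK level on no array and 1, miR-155, on all. miR-155, which is induced in activated leukocytes, read 1358, 976 and 678, so that PA was above the mid-parent by 0.72 ± 0.09.

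Among the PP-like probes, miR-21, often raised in injured tissue, read 538 on PA from 2 spots, 1432 on AA and 365 on PP, where it was under the BLANK level (AA at least 2.71-fold above it). miR-219, needed for myelination by oligodendrocytes, read 1216, 2219 and 875, with all 3 arrays above the BLANK level and PA spots apart from those of both parents. The lymphocyte miRNA miR-150 read 136.6, 612 and 166, above the BLANK level on AA alone, but its 2 AA spots were 248 and 1510. The teleost miR-740 read 243, 115 and 261, and miR-457b, a relative of miR-15 and miR-16, 257, 165 and 360.2, both above the BLANK level on PA alone. Although PP-like by the tolerance, miR-457b differed from the mid-parent by only −0.03 ± 0.31. It lay at 56.6% of the log2 distance from AA to PP, so its class does not set it apart from an additive level. Bright PP-like probes with the lower parent AA included neural miR-9 (3967 on PA, 2068 on AA and 3463 on PP), miR-92b (2147, 1199 and 1985) and miR-30e (1584, 829.8 and 1073). For these PA was the highest array, as it was for 9 of the 21 PP-like probes.

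Probes between the parents and over 1.5-fold from each were few, although by simple order PA was in the middle for 52 of the 116. This class needs parents well apart. A level near the mid-parent can also be classed as like a single parent, as for miR-457b. miR-10d, encoded in a Hox cluster, read 374.8 on PA, 129.8 on AA and 591 on PP, 69.9% of the log2 distance from AA to PP, and differed from the mid-parent by 0.06 ± 0.19. Pancreatic islet miR-375 read 211, 137.3 and 487, at 34.1% of that distance. Neural miR-153c read 1619, 2525 and 998, at 47.9%, and was the intermediate probe with all arrays above the BLANK level. Its PA spots were apart from those of both parents. miR-26a (216.2, 118 and 358) and miR-19a* (233, 107 and 350.1) had PP spots that spread over 210.4 to 983 and 172 to 711, so their place between the parents was not firm. These probes and miR-375 were above the BLANK level on PA alone.

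**Figure D3:**
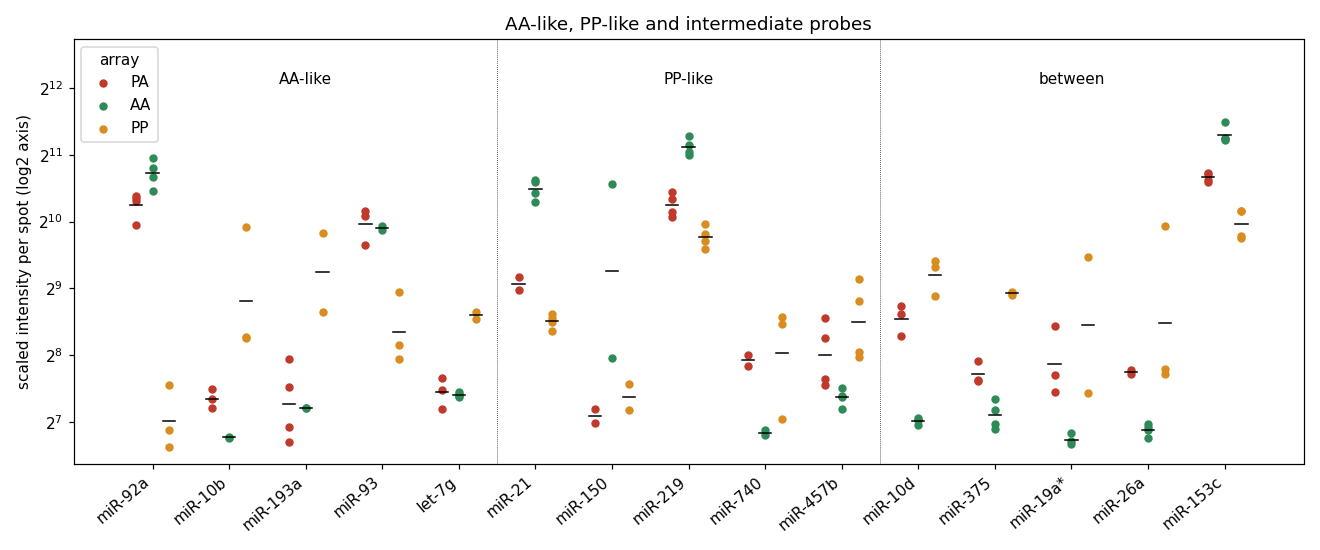
Scaled intensity of each passing spot (log2 axis) on PA, AA and PP for the 5 AA-like and 5 PP-like probes with the widest parental gap and for the 5 probes between the parents; bars mark the mean on the log2 scale. The tight spots of miR-219 and miR-153c keep the 3 arrays apart, while the PP spots of miR-10b, miR-26a and miR-19a* are widely spread.

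The brightest probes were near both parents. Liver and gut miR-192 read 24542 on PA, 21105 on AA and 22424 on PP (0.17 ± 0.17), miR-27c 17411, 16820 and 17568 (0.02 ± 0.16), and miR-23a 12546, 12977 and 9911 (0.13 ± 0.20). The PA spots of each overlapped those of both parents. The activity-linked neuronal miR-132 was also close, with 3864, 3906 and 3072 (0.15 ± 0.04).

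Some miRNAs had a signal on PA but none detected on either parent, or the reverse. Here the fold is a lower bound, from the lower of the bright probe's mean over passing spots and its mean over all kept spots, against the higher of the dim probe's own signal and the lowest detected signal of its array. miR-182, which is expressed with miR-96 and miR-183 in sensory organs, read 1074 on PA, at least 9.52-fold above both parents and 2.03-fold above their BLANK levels. miR-135b read 635 over its 2 passing spots on PA but 342 over all kept spots, at least 3.03-fold above both parents. Those passing spots were the upper ones, over local backgrounds of 447 and 462, and neither lower PA spot of miR-135b passed. The bounds for miR-19b* and miR-27c* were 2.74-fold and 1.87-fold, and none of these last 3 miRNAs had a bound against the BLANK level of PP. The passing PA spots of miR-19b* were 686 and 161, and another kept spot did not pass.

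Detected on both parents and measured but not detected on PA were 8 probes. miR-736, a teleost miRNA, read 220.8 on AA and 1708 on PP (at least 2.02-fold above PA, and 1.07-fold above the BLANK level of PA). Leukocyte miR-142a-5p read 252 and 161 (at least 1.46-fold), gonadal miR-202 293 and 211 over passing spots and 166.0 and 152.4 over all kept spots (at least 1.39-fold), and neuronal miR-128 135.9 and 129.3 (at least 1.18-fold). None of these last 3 had a bound against the BLANK level of PA on both parents. For epithelial miR-200b, also among the 8, the AA mean over all kept spots (88.6) gave no bound.

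By family the differences were mostly small and mixed in class. The families were 25 lists, and 22 had a median above 0, beside the median of 0.14 over all probes. With 6 scalings tried, 11 lists kept a median above 0, 3 kept one below 0 and 11 changed sign, so the lists are given with the range of the median over the scalings. Of the 14 that kept their sign over the scalings, 7 also kept it under every other alternative tried, which were the miR-183 cluster, the miR-200 family, miR-462 and miR-731, blood and vessel, miR-19 with its relatives, miR-30 and the pancreatic list. The other 7 turned under at least 1 of them. A share of list members above the mid-parent is to be read beside the 62.9% of all probes.

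Epithelial and sensory lists stood above the median of all probes, but none of their members was above the BLANK level on all 3 arrays. The 2 measured members of the miR-183 cluster, miR-96 and miR-183, had a median of 0.85 (0.59 to 0.90), where miR-183 read 168 on PA, 107 on AA and 128.8 on PP. Next came the miR-200 family, which through miR-200a and miR-429 had a median of 0.63 (0.42 to 0.68). Its member miR-200b was detected on AA and PP but not on PA, so it is not in that median. The skin miRNAs miR-203a and miR-205 were at 0.64 ± 0.08 and −0.07 ± 0.27, with a median of 0.28 that turned to −0.44 in the authors' table. The teleost pair miR-462 and miR-731 had a median of 1.96 (1.799 to 2.09), which is the midpoint of miR-731 and a member not above the BLANK level on any array.

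All 4 blood and vessel miRNAs were above the mid-parent (median 0.44, 0.21 to 0.48), namely miR-451, smooth muscle miR-145 (195, 152.2 and 143.5), miR-222 and endothelial miR-126. Endothelial miR-126 was PP-like, with 353 on PA, 163 on AA and 344 on PP, while miR-222 was AA-like, with 333, 341 and 168. Of 4 leukocyte miRNAs, 3 were above (median 0.38, 0.13 to 0.44), a share near that of all probes, and 2 of 4 with median, quantile or control-spot scaling. Here miR-146b and miR-155 were above the mid-parent and miR-150 below it, and the median turned to −0.12 with no filter on dim spots. The other red blood cell marker, miR-144, was undetected on each of the 3, and the part of blood cells in these values was not tested.

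Muscle miRNAs were above the mid-parent in 4 of 5 (median 0.49, 0.27 to 0.54), with a median of −0.04 or −0.05 when the second or the third spot copy was left out. miR-1 was above both parents, miR-133a at 0.52 ± 0.10 and miR-133b at 0.49 ± 0.55 were smaller, and miR-206 was at −0.21 ± 0.49. Of the neural miRNAs 4 of 12 were above and 8 below (median −0.07, −0.35 to −0.02). This count was 6 of 12 with no scaling or with the total of the common probes, and the median was 0.10 in the upper spots alone. Here miR-218a was below both parents, miR-138 read 1309.7 on PA against 1891 on AA and 1604 on PP (−0.42 ± 0.10), and miR-9 was on the upper side (0.52 ± 0.13). The liver and gut list, with miR-122 at 0.13 ± 0.12 and miR-192, had a median of 0.13, which turned to −0.16 with median scaling.

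Of the growth-linked families some had medians near that of all probes and others higher ones. The list of miR-17 and its relatives miR-18, miR-20 and miR-93 had a median of 0.11, that of miR-15, miR-16 and miR-457 of 0.10 and that of miR-23, miR-24 and miR-27 of 0.23, and median scaling turned them to −0.10, −0.08 and −0.05. The list of miR-19, miR-25, miR-92 and miR-363 was above in 5 of 5 (median 0.43, 0.24 to 0.50). Each member was in a different class, from miR-25 above both to miR-19a* between. The list of miR-130, miR-301 and miR-454 (0.79, 0.51 to 0.84) held 2 of the above-both probes and AA-like miR-130b (320.5, 255 and 487; −0.21 ± 1.28). The miR-30 list (0.68, 0.38 to 0.73) held miR-30c (332, 206.2 and 207.9) and miR-30e above the mid-parent and miR-30a (138.8, 132.02 and 151) near it.

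Of the developmental families, let-7 was below in 3 of 4 (median −0.34, −0.60 to −0.30), of which let-7a lay at −0.01, and in 2 of 4 with no scaling or the total of the common probes. Its median turned to 0.31 in the lower spots alone. Also measured was the miR-430 and miR-202 list, above in 2 of 3 (0.52, 0.30 to 0.57; −0.68 with no filter on dim spots), where miR-430b read 305, 193 and 231 and miR-430a 746, 544 and 952. The miR-430a spots spread from 232 to 8587 on PA, 117 to 3590 on AA and 444 to 3811 on PP, a difference of −0.004 ± 1.48. With no scaling or the total of the common probes 3 of 3 on that list were above. The Hox list had 4 of 5 above with a median of 0.13 that turned to −0.04 with median scaling. Its members differed in class, as miR-10a* was above both parents (429.5, 281 and 191), miR-10b AA-like, miR-10d between, and miR-196b near both (1206, 869 and 858; 0.48 ± 0.04). Stress and injury miRNAs split into miR-22a (299, 180 and 171) above both parents and miR-21 and miR-210 below the mid-parent. Their list had a median of 0.18 that turned to −0.12. The difference of miR-210 was −0.71 ± 0.93, with no array above its BLANK level. Its PP spots spread from 107.7 to 4343, and its lower spots alone gave a difference of 0.04, so its side of the mid-parent was not firm. The chromatin-targeting list held miR-101a, with miR-26a, miR-26b, miR-29a and miR-29b all within 1.5-fold of the mid-parent. The 9 other teleost miRNAs had a median of 0.11 that turned to −0.13, and pancreatic miR-375 alone represented its list (−0.56 ± 0.10).

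The last lists had 2 members each that were detected on all 3 arrays. miR-181a, a bright probe for a miRNA known from lymphocytes and brain, read 10609.6 on PA, 10479 on AA and 12861 on PP (−0.14 ± 0.60). With miR-181a* the list had a median of 0.07 that turned to −0.16 with median scaling. miR-125c and miR-100 (214.02, 343 and 196.4; −0.33 ± 0.06) lay on opposite sides of the mid-parent, with a median of 0.26 that turned to −0.04. Connective tissue miR-199* (643, 422 and 479; 0.51 ± 0.04) and miR-140* (122.7, 165 and 122.4; −0.23 ± 0.24) did so too, with a median of 0.14 that turned to −0.12.

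**Figure D4:**
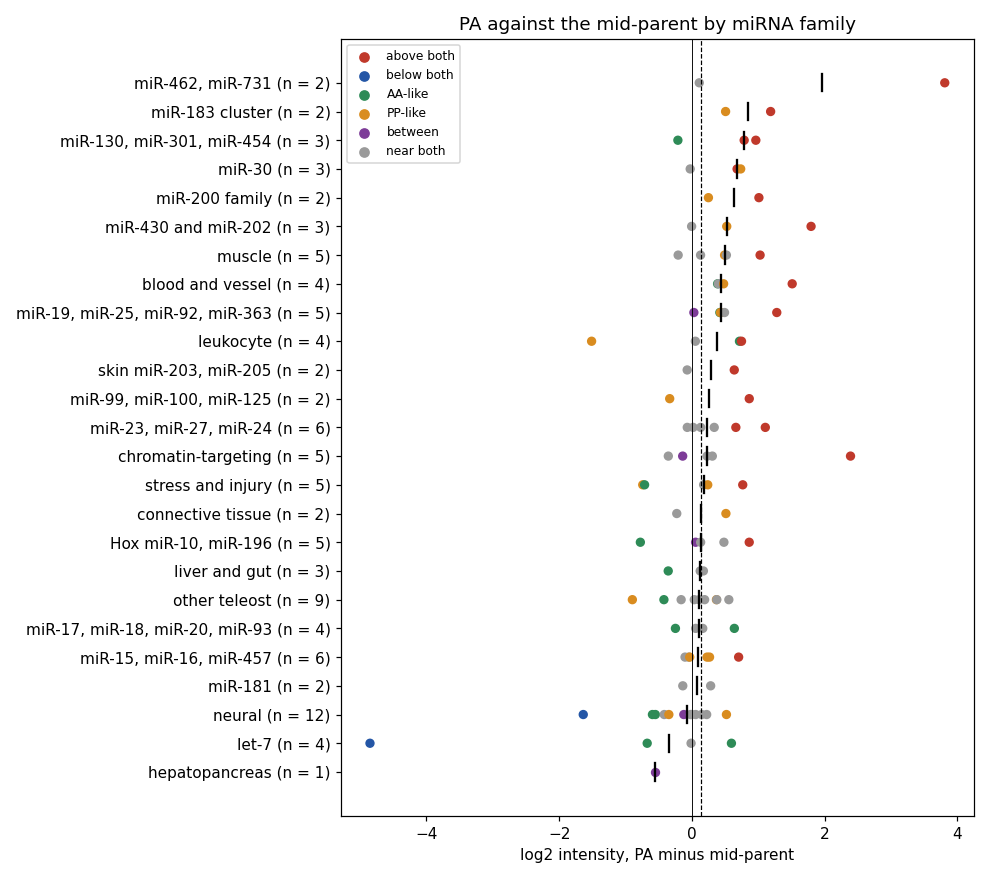
Log2 difference between PA and the mid-parent of each probe (points, coloured by class) in the 25 miRNA lists, ordered by the list median (vertical bars); the solid line is the mid-parent and the dashed line the median of all 116 probes at 0.14. Most lists of several members hold more than 1 class, and the single points of miR-731 and let-7c lie far from their own lists.

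Classes depended on the scaling to different degrees. Over 6 scalings (total signal, none, total of the 116 common probes, control spots labelled Homo, median, quantile), 5 of the 19 probes above both parents stayed in their class, which were miR-731, miR-101a, miR-430j, miR-451 and miR-96. All 3 probes below both parents stayed. Of the AA-like probes 10 of 19 stayed, of the PP-like 5 of 21, of those between 1 of 5 (miR-10d) and of those near both 32 of 49. The log2 difference over these scalings ran from 3.70 to 4.25 for miR-731, from −5.14 to −4.69 for let-7c, from −2.01 to −1.38 for miR-220 and from −1.88 to −1.43 for miR-218a, but from 0.49 to 1.34 for miR-146b.

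**Figure D5:**
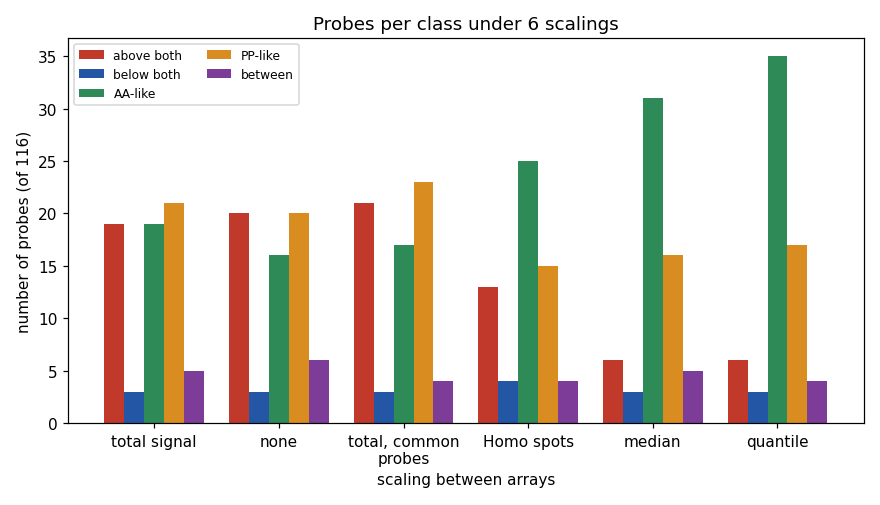
Number of the 116 zebrafish probes in each class (bars) under 6 scalings between arrays. The above-both class holds 19 probes with the total signal and 6 with the median, the AA-like class grows from 19 to 31 over the same change, and the below-both class holds 3 or 4 under each of them.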

How the data were processed

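The authors' deposited scanner files give, per spot, foreground and local background intensity, quantified in QuantArray with no background subtracted per the file headers, and a deposited column of other values, 1 or 0 per spot, read as spot kept or set aside. The authors' deposited value table of linear intensity, 241 probes, served as an alternative. The local background was subtracted. A kept spot passed where its foreground was 2 times its background or more, and detection took at least 2 passing spots of 4. Its value was the mean log2 over passing spots, and each array was scaled to the total of its detected zebrafish probes. No test was run, with 1 array per composition. The SE of a difference combines spot errors. Named were the probes furthest from the mid-parent with spots apart, those with the widest parental gap per class, the 3 brightest and the largest bounds. The members, lists and alternatives were chosen with earlier results of these data known. Scripts in Python 3.11.15 with numpy 2.4.6 and pandas 2.3.3 were tested on simulated data. No probe sequences were used here.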

Additional observations from a re-analysis of the deposited data

Results flagged for a closer look

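Of probes without a zebrafish name, 3 differed from the mid-parent by at least 4-fold with PA spots apart from those of both parents. A probe identified only by the number 1522 read 10298 on PA, 230.1 on AA and 167 on PP, a log2 difference of 5.70 ± 0.18, with 11185 on PAA. No source used here names its target. The human probe hsa-miR-345 read 1068, 7211 and 6286 (−2.66 ± 0.38), with 3619.8 on PAA. The mouse probe mmu-miR-200b read 16662, 2515 and 3184 (2.55 ± 0.36), with 21061 on PAA, while the zebrafish miR-200b probe was not detected on PA. The PAA array shared the slide of PA.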

How the results depend on the processing

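No paired analysis was possible because each composition had 1 array. Values are the median log2 difference (0.14), the probes at least 2-fold above (9) and below (5) the mid-parent, and the probes above both (19), below both (3), AA-like (19), PP-like (21) and between (5). Median scaling gave a median of −0.10, 4 at least 2-fold above, 6 above both and 31 AA-like, and quantile normalization −0.10, 5, 6 and 35. The authors' table, which equals foreground means times a factor per array with no background subtracted, gave a median of −0.032, 12 at least 2-fold below, 11 above both, 8 below both, 58 AA-like and 3 between. With no filter on dim spots (197 probes) there were 19 above and 17 below by 2-fold, 34 above both, 16 below both, 36 AA-like, 44 PP-like and 18 between. There the median of the miR-130, miR-301 and miR-454 list was −0.26 (−0.43 in the authors' table) and miR-193a 0.36. Of the 14 lists that kept their sign over the scalings, 6 others also turned under some alternative, down to −0.68 for miR-430 and miR-202, −0.44 for skin, −0.12 for leukocyte and −0.05 for muscle, and up to 0.31 for let-7 and 0.10 for neural. The 22 probes above BLANK on all 3 arrays had 0 above and 3 below by 2-fold, 1 above both, 1 AA-like, 6 PP-like and 1 between. With spots set aside included there were 14 above and 12 below by 2-fold, 7 below both, 35 AA-like and 16 between. Normexp gave 5 above and 3 below by 2-fold. No background subtraction gave 12 above both and 2 between. A tighter tolerance gave 30 above both and 15 between, and a 2-fold tolerance 6 above both, 7 PP-like and 0 between.

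Chosen after seeing the data, the upper spots alone gave 21 at least 2-fold above, 30 above both, 34 AA-like and 8 between, and the lower spots alone 11 above both. Without spots of background over 150 there were 10 above both, 6 below both and 3 between. Leaving out each spot copy in turn, the median was 0.14 to 0.19, the probes 2-fold above 4 to 9 and below 3 to 4, those above both 8 to 21, below both 3 to 4, AA-like 7 to 16, PP-like 15 to 23 and between 2 to 5. The cause of these changes was not tested, beyond the fewer or more probes that each alternative let through. No other call of a direction changed among the named miRNAs at least 2-fold from the mid-parent. The number of arrays limits the precision.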
